A study of Mus musculus with 147 samples.

Results

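Spermatogonia of the early postnatal mouse testis were divided by 2 transcripts, Gfra1 and Stra8, and the sides were compared from postnatal day (PND) 3 to PND8. Members were selected on their measured values. A wild-type cell had to hold more than 2000 genes and between 10000 and 1000000 unique molecular identifiers (UMIs), where 1 UMI stands for 1 captured transcript. It was taken as a germ cell at 150 or more UMIs of Ddx4 per 1000000 of its UMIs (CPM), with Sox9, a Sertoli cell gene, and Nr2f2, an interstitial cell gene, each below 100 CPM. The Gfra1-high side had Gfra1 at 50 CPM or more and Stra8 below 20 CPM, and the Stra8-high side the reverse. They held 83 and 731 cells, 814 of the 13032 cells of the series and of the 1787 germ cells of PND3 to PND8. Germ cells with both genes at 50 CPM or more, called double-high here, numbered 467.

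The mice were offspring of C57BL/6 females and males carrying the transgenes Prdm1-mVenus and Dppa3-ECFP, and both sides share this background. Cells were taken up one by one on the strength of their shape, and no sort on a marker is described for these ages. There were 12 pools, a pool being the cells of 1 time-point and biological replicate (R1 or R2), and each came from the gonads of 1 animal and 2 libraries. Time-point, genotype and replicate were read from the cell names in the authors' table of cells, since the labels of the libraries give none of these.

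In the postnatal testis, Sertoli cells release GDNF, which binds the co-receptor GFRA1 and the kinase RET on undifferentiated spermatogonia. The signal maintains transcription factors such as ETV5, BCL6B, LHX1 and ID4, and supports self-renewal. Retinoic acid acts through nuclear receptors to switch on Stra8, and cells then enter differentiation with KIT at their surface. At these ages the first spermatogonia arise from prospermatogonia.

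The retinoic acid receptors bind direct repeats of the core motif AGGTCA, and this motif was looked for on both strands (as TGACCT on the other strand) in RefSeq promoters of build GRCm38.p6, from 250 bases before to 50 after a gene's start. The letters occur in 5340 of 32851 promoters, or 16.3%. The 300 bases of Stra8 held them 2 times, and those of Gfra1 and Lhx1 held none. Below are 30-base windows around the motif, in capitals, for Stra8 and for Sohlh1 and Rarg, which are described further on. The Stra8 windows are chr6:34920742-34920771 and chr6:34920898-34920927 on the plus strand, 194 and 38 bases before the RefSeq start. GENCODE M21 places the gene at chr6:34920163-34939344, so in that annotation both windows lie inside it. The windows of Sohlh1, chr2:25847446-25847475, and of Rarg, chr15:102257730-102257759, are read on the minus strand, on which both genes lie, 215 and 225 bases before the start.
Stra8, first: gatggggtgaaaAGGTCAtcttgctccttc
Stra8, second: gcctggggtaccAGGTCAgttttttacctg
Sohlh1: tgggctgtgatcAGGTCAcgtggtctgaag
Rarg: agcccaggacacTGACCTctgccagctctg
The match is of letters alone. Among the genes lower in Stra8-high than in double-high cells (further on), 72 of 505 promoters held it (14.3%), and among those higher, 27 of 267 (10.1%). For Gfra1-high against Stra8-high cells in 5 pools, it was in 4 of 40 promoters of genes higher in Gfra1-high cells (10.0%) and in 3 of 9 of those higher in Stra8-high cells (33.3%). No test was made of these shares.

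The sides fell at different ages. Gfra1-high cells made up 6.32% of germ cells at PND3 in R1 and 10.5% in R2, and at PND4 9.39% and 17.6%. At PND5 they made up 1.16% and 5.52%, at PND6 3.57% and 1.53%, at PND7 0.662% and 0.641%. At PND8 there were 0 in 160 germ cells of R1 and 0 in 176 of R2, which allows shares of up to 2.28% and 2.07% (exact binomial 95% limit, counting error only). Stra8-high cells made up 12.1% and 9.15% at PND3, 4.42% and 5.34% at PND4, 39.3% and 15.2% at PND5, 32.1% and 34.4% at PND6, 77.5% and 79.5% at PND7, and 84.4% and 86.4% at PND8. Double-high cells were 48.3% and 39.2% at PND3 and 5.62% and 9.09% at PND8. These shares are what the rule makes of the cells and were not tested. At PND10 to PND14, outside the rule's window, 1 of 1259 germ cells was Gfra1-high (0.0794%, 95% interval 0.00201 to 0.442%) and 982 were Stra8-high (78%), so the sides could not be compared there.

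**Figure D1:**
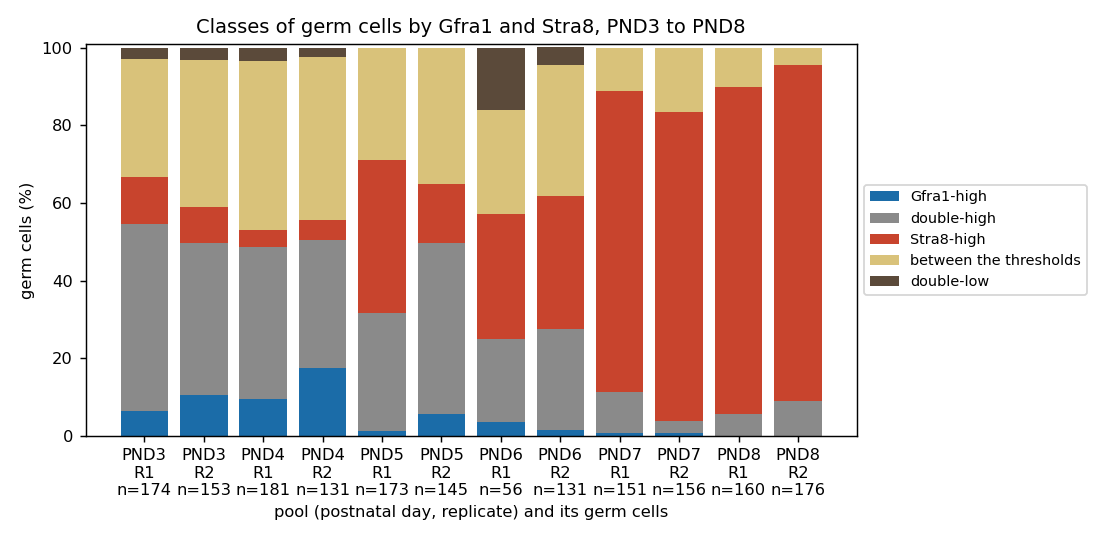
Share of germ cells (y axis, %) in each class by pool (x axis: postnatal day and replicate, with the number of germ cells). Gfra1-high cells reach 17.6% in PND4 R2 and are missing at PND8, where Stra8-high cells make up 84.4% and 86.4%.

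Most cells of PND3 to PND5 were on neither side, and the sides are the ends of a range. Median Gfra1 was 90.4 CPM in Gfra1-high cells, 92.5 CPM in double-high cells and 0 CPM in Stra8-high cells, and median Stra8 was 12.8, 180 and 362 CPM. In UMIs, the median Gfra1-high cell had 18 of Gfra1 and 3 of Stra8, and the median Stra8-high cell held 0 of Gfra1. Stra8 had no UMI in 18 of the 83 Gfra1-high cells, and Gfra1 none in 408 of the 731 Stra8-high cells. The Gfra1-high cell nearest to the threshold of 50 CPM had 50.3 CPM of Gfra1, and the nearest cell left out 46.9 CPM. At the threshold of 20 CPM the nearest values were 19.7 and 20.1 CPM of Stra8 for the Gfra1-high side and 19.7 and 20.3 CPM of Gfra1 for the Stra8-high side. A further 34 germ cells had both genes below 20 CPM, never 10 or more in a pool. Ddx4, also used by the rule, lay between 369 and 447 CPM in the sums of both sides at PND3 to PND5. Across PND3 to PND5, Zbtb16, a transcription factor of undifferentiated spermatogonia that the rule does not use, lay between 69.7 and 91.7 CPM in the 5 Gfra1-high sums and between 24.9 and 81.3 CPM in their Stra8-high partners, so that both sides carried it.

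UMIs of the cells of a side were summed per pool, and the sides were compared within pools by edgeR's quasi-likelihood test at a false discovery rate of 0.05, leaving out the genes of the rule. Only PND3 R1 (11 Gfra1-high and 21 Stra8-high cells) and PND3 R2 (16 and 14 cells) held 10 or more cells on both sides. In these 2 pools, 11 of 13004 genes were higher in Gfra1-high cells (0.0846%) and 15 higher in Stra8-high cells (0.115%). With 2 animals, the test borrows its spread largely from other genes, so its p-values say little of the spread between animals. Without pairing by pool the counts were 0 and 0, and DESeq2 with the pairing called 1 and 2. In the paired edgeR test 667 of the 13004 genes had an unadjusted p under 0.05, close to the 1 in 20 that chance alone gives. The median cell was shallower on the Gfra1-high side in R1 (152059 against 261655 UMIs) and deeper in R2 (262290 against 75008.5 UMIs).

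Among the genes higher in Gfra1-high cells at PND3 were Tcl1, a co-activator of the kinase AKT, and Nefm, a neurofilament subunit that the study picked as a spermatogonial marker on these samples. Tcl1 had 323 and 309 CPM in Gfra1-high cells of R1 and R2 and 141.7 and 158 CPM in Stra8-high cells, a log2 fold change of 1.10 ± 0.26 (SE, adjusted p = 0.0188, edgeR). Nefm had 334 and 197 CPM against 94.2 and 148 CPM, with a log2 fold change of 1.15 ± 0.26 (adjusted p = 0.00797, edgeR). The log2 ratio of Nefm was 1.95 in R1 and 0.33 in R2, so most of its difference came from R1. The gene with the largest difference, Gm16222, an antisense RNA, had 28.4 and 2.53 CPM in Gfra1-high and 172 and 49.9 CPM in Stra8-high cells (log2 fold change -3.24 ± 0.39, adjusted p = 2.66e-12, edgeR). At PND4 its order was the reverse, with 73.9 and 78.9 CPM in Gfra1-high and 10.1 and 19.6 CPM in Stra8-high cells. Tcl1 and Nefm were the list genes called in these 2 pools. Of 15 tested GDNF genes none was called, 12 had positive differences, and the median was 0.38 against -0.02 over all genes. In the same pools 7 of 8 tested Sertoli cell markers lay lower in Gfra1-high cells (median -0.96), as did 6 of 8 interstitial and peritubular ones (median -1.26), while 5 of 5 blood and endothelial markers lay higher (median 0.60). None of them was called, and their part in the differences was not tested.

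Several of these 26 calls rested on few cells. Of the 21 genes named by rule (the largest differences at a mean log2 CPM of at least 5, the same way in both pools, and called list members), 3 took more than 50% of the UMIs of their higher side from 1 cell. These were Kdelc2 with 68.5%, Slc35d2 with 67.4% and Nprl3 with 54.3%. The other genes named were Car6, a secreted carbonic anhydrase, Prrx2, a homeobox gene, B930036N10Rik, Gm904 and Smap1 on the Gfra1-high side, and P2rx4, an ATP-gated ion channel, Xaf1, Hmgn5, Siglec1, Alox8, Bc1, 1300002E11Rik, 1600020E01Rik, Gm11525 and Gm10457 on the Stra8-high side. Summed per library instead of per pool, B930036N10Rik changed to a log2 fold change of -0.998 and Nprl3 to 0.42, the reverse of their direction in the pools, and neither was called there.

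With 5 or more cells per sum, PND4 R1, PND4 R2 and PND5 R2 joined the PND3 pools, and genes of the GDNF pathway were among those higher in Gfra1-high cells. In these 5 pools, 32 of 11971 genes were higher in Gfra1-high cells (0.267%) and 6 higher in Stra8-high cells (0.0501%). Of the 38 genes, 6 were among the 26 of the PND3 pools (15.8% of the 38 and 23.1% of the 26), which share PND3 cells: 1600020E01Rik, Car6, Nefm, P2rx4, Prrx2 and Tcl1. DESeq2 called 88 and 38, and the test without pairing by pool 3 and 1. The counts moved with single pools: 24 and 2 without PND3 R1, 52 and 13 without PND3 R2, 3 and 2 without PND4 R1, 19 and 6 without PND4 R2, and 7 and 4 without PND5 R2. With cells thinned to 50000 UMIs they were 22 and 14.

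Of 14 tested genes of GDNF signalling and its targets, 4 were higher in Gfra1-high cells (Lhx1, T, Egr2 and Dusp6), 13 had a positive difference and none was called lower, with a median log2 fold change of 0.80 against -0.002 over all genes. Lhx1, a LIM homeobox factor induced by GDNF, had 169, 100.2, 194, 181 and 156.5 CPM in Gfra1-high cells of PND3 R1, PND3 R2, PND4 R1, PND4 R2 and PND5 R2. In Stra8-high cells of the same pools it had 60.8, 72.5, 18.3, 62.5 and 38.3 CPM. The lowest Gfra1-high pool was above the highest Stra8-high pool, and the log2 fold change was 1.79 ± 0.27 (adjusted p = 0.00686, edgeR).

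T, the T-box factor brachyury, is a further GDNF target in cultured spermatogonia. It had 38.5, 58.8, 26.1, 58.5 and 11.9 CPM in Gfra1-high against 11.4, 20.3, 2.89, 13.1 and 1.69 CPM in Stra8-high cells, a log2 fold change of 2.23 ± 0.38 (adjusted p = 0.00958, edgeR). It was higher in Gfra1-high cells in each pool, and the ranges overlapped through PND5 R2, in which both sides were lowest. Egr2, an immediate early zinc finger factor, had 57.2, 95.4, 108.2, 91.5 and 93.3 CPM against 30.3, 57.99, 17.3, 43.8 and 17.6 CPM, with a log2 fold change of 1.57 ± 0.28 (adjusted p = 0.0155, edgeR).

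Dusp6, a phosphatase that feeds back on ERK, had 164, 188, 237, 188 and 185 CPM against 103.4, 129.9, 84.2, 162 and 40.5 CPM, without overlap (log2 fold change 1.04 ± 0.22, adjusted p = 0.0495, edgeR). The ETS factors Etv5 (log2 fold change 0.75 ± 0.18, adjusted p = 0.0803) and Etv4 (0.57 ± 0.16, adjusted p = 0.16) and the receptor Ret (0.64 ± 0.17, adjusted p = 0.12) did not pass the edgeR test. Mycn, a growth factor-induced transcription factor, was at 0.08 ± 0.34.

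Among 18 tested regulators and surface markers of undifferentiated spermatogonia, Tcl1 and Id4 were higher in Gfra1-high cells and none was called lower (median log2 fold change 0.26). Tcl1 had 323, 309, 348, 350 and 397 CPM in Gfra1-high against 141.7, 158, 125.6, 203 and 81.9 CPM in Stra8-high cells. The sides did not overlap, and the log2 fold change was 1.38 ± 0.18 (adjusted p = 0.00162, edgeR). Id4, an inhibitor of bHLH factors that marks stem cells in the juvenile testis, had 202, 196, 235, 225 and 127.2 CPM against 109.6, 192, 57.8, 149 and 53.5 CPM, nearly level in PND3 R2 and higher in Gfra1-high cells in 4 of 5 pools after TMM scaling (log2 fold change 0.99 ± 0.21, adjusted p = 0.0465, edgeR). Of the 4 spermatogonial markers that the study picked on these samples, which are no independent evidence of a direction, Nefm (1.14 ± 0.19), Tmc6 (1.36 ± 0.24) and Hhex (0.96 ± 0.21) were higher in Gfra1-high cells, and Tagln2 was at 0.47 ± 0.15 (adjusted p = 0.289, edgeR).

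The 6 genes higher in Stra8-high cells included the antisense RNA 1600020E01Rik, the ion channel gene P2rx4, Ndrg4, Rrad, a small GTPase, and Ninj1, an adhesion protein. 1600020E01Rik (chr6:86526247-86582466, plus strand, GENCODE M21 on mm10) had 180, 182, 153, 261 and 158 CPM in Stra8-high against 82.9, 69.8, 82.1, 96.3 and 60.4 CPM in Gfra1-high cells, a log2 fold change of -1.20 ± 0.15 (adjusted p = 0.00113, edgeR). It is annotated as antisense, and it was not stated whether counting used the strand. P2rx4 had 278, 125.8, 99.6, 301 and 114.1 CPM in Stra8-high against 85.6, 72.4, 60.5, 87.3 and 73.2 CPM in Gfra1-high cells (-1.10 ± 0.18, adjusted p = 0.00958, edgeR). For both genes the sides did not overlap. Of the 22 genes named by rule, 4 were called whichever pool was left out: Lhx1 (log2 fold change 1.45 to 2.13), Tcl1 (1.11 to 1.53), 1600020E01Rik (-1.27 to -1.13) and Car6 (1.37 to 1.63). T was lost without PND4 R1 or PND4 R2, Egr2 and Nefm without PND4 R1 or PND5 R2, and Dusp6 also without PND3 R1, with highest adjusted p of 0.0583, 0.139, 0.086 and 0.261 (edgeR). Id4 kept its call only without PND3 R2, and Rrad and Ninj1 lost theirs without any 1 of the 5 pools. The remaining named genes, all higher in Gfra1-high cells, were Nxph4, Plvap, Mest, B4gat1, F2rl1, Pqlc1 and Cdc42ep3.

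**Figure D2:**
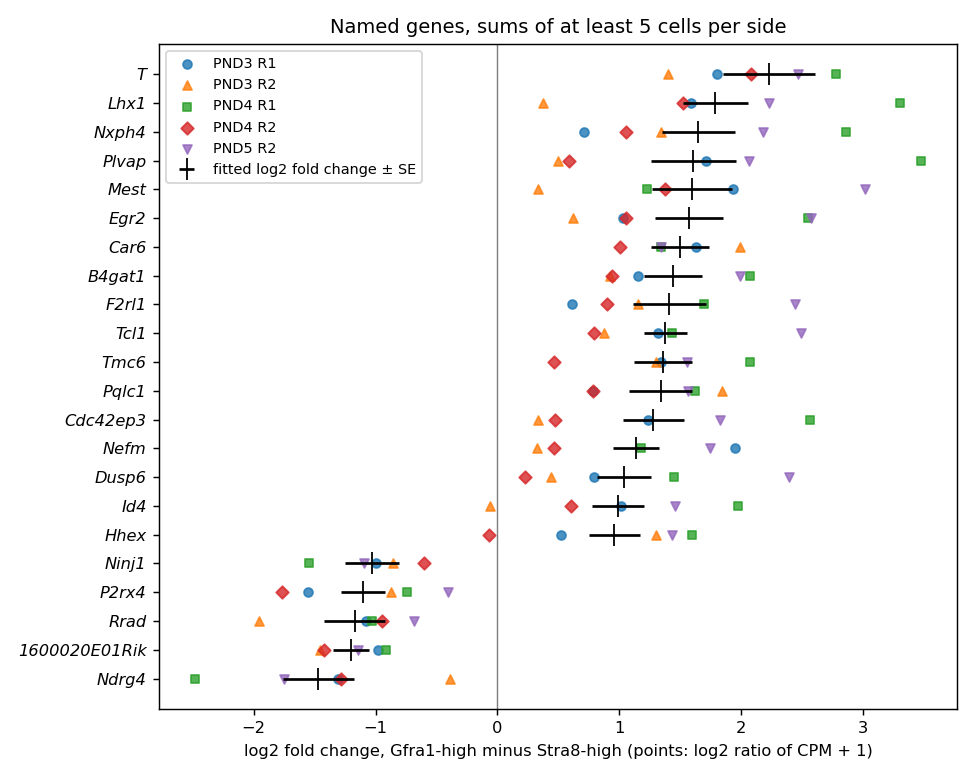
Log2 ratio of each named gene between Gfra1-high and Stra8-high cells (x axis, Gfra1-high minus Stra8-high) in the 5 pools (points, ratio of CPM + 1 after TMM scaling) and the fitted log2 fold change ± SE (bars). Id4 in PND3 R2 and Hhex in PND4 R2 are the values on the other side of 0 after this scaling, and the other genes keep their direction in the 5 pools.

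None of 15 tested genes of retinoic acid reception and metabolism, 11 differentiation factors or 5 progenitor genes was called in the 5 pools. Crabp1, which carries retinoic acid in the cytoplasm, had a log2 fold change of -0.51 ± 0.12 (adjusted p = 0.0836) and Sohlh1, a bHLH factor needed for differentiation, of -0.70 ± 0.17 (adjusted p = 0.0862, edgeR). All 5 progenitor genes had negative differences, with a median of -0.63. Of 52 G2/M genes, 47 had positive differences with a median of 0.22, and of 42 G1/S genes 22 with a median of 0.01, none of them called. None of 26 meiotic prophase genes, 16 genes of glycolysis, 6 DNA methylation enzymes or 4 prospermatogonia markers was called either.

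RNA of other cell types was measured on both sides. The summed level of 10 Sertoli cell markers, Sox9 not among them, lay between 32.1 and 369 CPM in Gfra1-high and between 27.4 and 631 CPM in Stra8-high sums of the 5 pools. That of 8 interstitial and peritubular markers lay between 44.4 and 235 CPM and between 68.3 and 407 CPM, and that of 5 Leydig cell markers between 0 and 59.5 CPM and between 1.44 and 152 CPM. Of 9 blood and endothelial markers it was 43.9 to 86.8 CPM and 13.96 to 91.04 CPM. None of the 23 tested markers was called. They lay lower in Gfra1-high cells for 7 of 9 tested Sertoli, 6 of 7 interstitial and 4 of 4 Leydig cell genes, and higher for 3 of 3 blood and endothelial genes. The defining Sertoli cell gene Amh had UMIs in 26.5% of Gfra1-high and 38.3% of Stra8-high cells over the window, and Csf1r, of macrophages, in 0 of 83 and 12.2%. Some other Sertoli cell markers were found in most cells, such as Clu (79.5% and 87.1%), Rhox8 (72.3% and 78.5%) and Inha (83.1% and 81.4%). Of the 10, Inha alone was more frequent in Gfra1-high cells. Markers of other cell types were also more frequent there, among them Kdr (24.1% and 12.2%) and Pdgfra (65.1% and 57.9%). Most Gfra1-high cells were of PND3 and PND4, and most Stra8-high cells of PND7 and PND8. The median Gfra1-high cell was also shallower, so these shares mix side with age, animal and depth. The part of RNA of other cell types in the differences between the sides was not tested.

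Whether the difference between the sides changed with age could not be tested on the 2 PND3 pools. In the 5 pools of PND3 to PND5, 0 of 11971 genes passed for a change with day in edgeR, and 3 were called by DESeq2. An unadjusted p under 0.05 was found for 477 genes in edgeR, fewer than the 1 in 20 that chance alone gives. The count of genes that passed in edgeR was 149 without PND3 R1.

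Because few cells were Gfra1-high, Stra8-high cells were also set against the double-high cells of their own testis, a comparison added after the data were seen. These classes are alike in having Stra8 at 50 CPM or more, and differ in Gfra1. The Stra8-high sums are partly those used above. In 8 pools (all of PND3, PND5 and PND6, with PND7 R1 and PND8 R2), 518 of 14506 genes were lower in Stra8-high cells (3.57%) and 259 higher (1.79%), and 454 of these genes had the same direction in all 8 pools. The test without pairing by pool called 67 and 26, and DESeq2 889 and 570. The shares of genes called lower and higher were 2.05% and 0.859% without PND5 R1, 2.28% and 0.970% without PND5 R2, 2.16% and 0.902% without PND6 R2, 2.29% and 1.12% without PND7 R1, and 4.45% and 2.72% without PND3 R2. Of the 66 genes named by rule, 49 were called whichever pool was left out.

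GDNF targets were lower in Stra8-high than in double-high cells, which differ in Gfra1 and in their level of Stra8. Of 15 genes of the list, 9 were lower in Stra8-high than in double-high cells (Ret, Etv5, Etv4, Bcl6b, Lhx1, T, Egr2, Dusp6 and Spry4), none was called higher, and the median log2 fold change was -1.53 against 0.01 over all genes. Lhx1 had between 1.03 and 72.5 CPM in Stra8-high cells with a median of 7.23 CPM, and between 19.9 and 117.6 CPM in double-high cells with a median of 91.8 CPM. It was lower in Stra8-high cells in 8 of 8 pools, by a log2 fold change of -2.83 ± 0.46 (adjusted p = 0.00174, edgeR), and without both pools of PND3 by -3.67. Etv5 ranged from 7.57 to 103.8 CPM with a median of 53.7 CPM in Stra8-high cells and from 121.3 to 188 CPM with a median of 148 CPM in double-high cells, without overlap (log2 fold change -1.77 ± 0.33, adjusted p = 0.00425, edgeR).

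Dusp6 did not overlap either, with 9.90 to 129.9 CPM (median 37.8 CPM) in Stra8-high and 132.4 to 206 CPM (median 150 CPM) in double-high cells, a log2 fold change of -1.98 ± 0.34 (adjusted p = 0.00237, edgeR). For Ret, the kinase that signals with GFRA1, medians were 46.1 and 117.5 CPM (-1.28 ± 0.23, adjusted p = 0.0035, edgeR). Egr2 (-2.29 ± 0.37), T (-2.33 ± 0.53), Etv4 (-1.53 ± 0.29), Spry4, an inhibitor of receptor kinase signalling (-1.82 ± 0.31), and Bcl6b (-1.28 ± 0.24) were lower in 8 of 8 pools. T was low, with a median of 0.72 CPM in Stra8-high and 8.52 CPM in double-high cells. In PND6 R2 its direction rested on 3 UMIs in Stra8-high and 4 in double-high cells. T lost its call without PND5 R1 or PND5 R2 (highest adjusted p = 0.0618, edgeR), and the other 8 genes kept theirs whichever pool was left out. Mycn (0.17 ± 0.16), Pou3f1 (0.04 ± 0.16), Spred1 (-0.32 ± 0.19) and Dusp4 (-1.38 ± 0.65) did not pass.

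**Figure D3:**
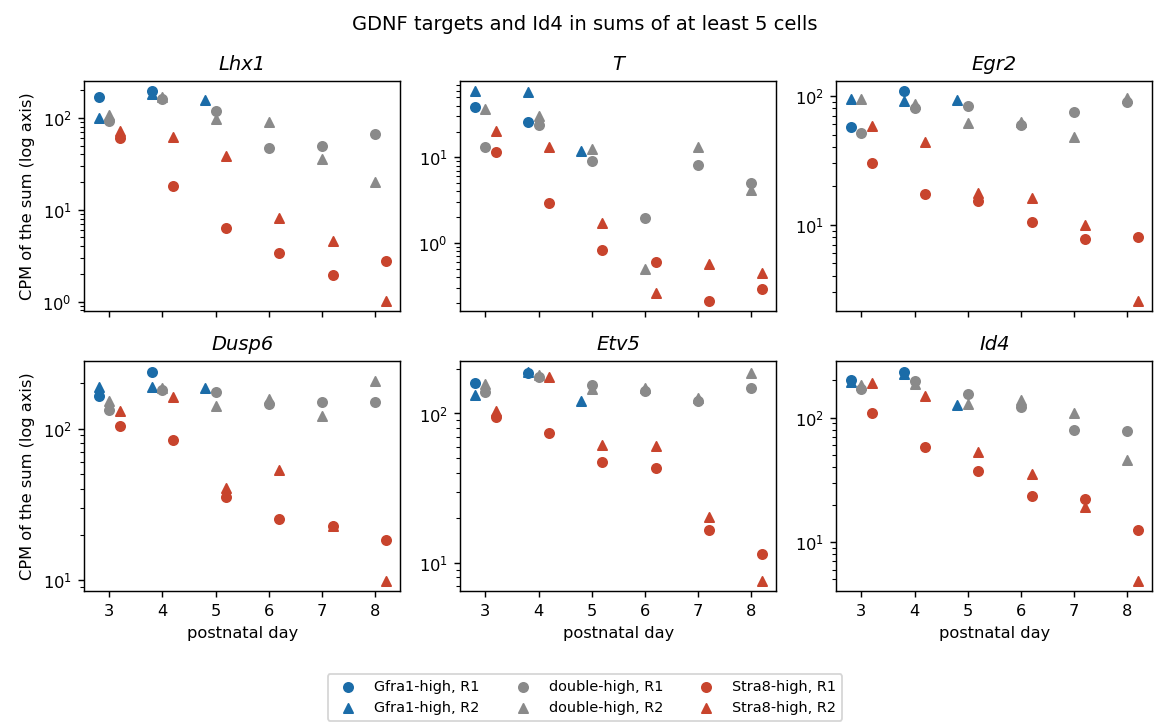
Levels (y axis, CPM of the sum, log axis) of Lhx1, T, Egr2, Dusp6, Etv5 and Id4 by postnatal day (x axis) in Gfra1-high, double-high and Stra8-high sums of at least 5 cells, circles for R1 and triangles for R2. Stra8-high values fall with day, to 1.03 CPM of Lhx1 in PND8 R2. Double-high values of Lhx1 also go from 161.5 and 168 CPM at PND4 to 67.4 and 19.9 CPM at PND8. Those of Id4 go from 172 and 185 CPM at PND3 to 78.4 and 45.8 CPM at PND8, and T is lower at PND8 too. Double-high values of Egr2 and Etv5 are not lower at PND8 than at PND3, and those of Dusp6 stay between 120.6 and 206 CPM.

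Markers of the undifferentiated state went the same way for part of the list. Of 19 tested genes, 8 were lower in Stra8-high cells: Id4, Tcl1, Eomes, a T-box factor of rare Gfra1-positive cells, and the surface proteins Cdh1, Tspan8, Thy1, Epcam and Cd9. None was called higher, and the median log2 fold change was -0.52. Eomes lost its call without PND5 R1, PND6 R2 or PND7 R1 (highest adjusted p = 0.0816, edgeR), and the other 7 kept theirs whichever pool was left out. Id4 had 4.87 to 192 CPM with a median of 36.2 CPM in Stra8-high and 45.8 to 185 CPM with a median of 134.1 CPM in double-high cells (-1.66 ± 0.26, adjusted p = 0.00159, edgeR). It was higher in Stra8-high cells in PND3 R2 and lower in 7 of 8 pools. Zbtb16 (-0.19 ± 0.15, adjusted p = 0.55) and Sall4 (-0.27 ± 0.08, adjusted p = 0.0614), both zinc finger factors, Foxo1 (0.28 ± 0.10) and Utf1 (-0.05 ± 0.12) did not pass the edgeR test. All 4 spermatogonial markers picked by the study on these samples were lower, Nefm by a log2 fold change of -2.12 ± 0.44 and Tmc6 by -1.91 ± 0.23. Foxc2, a forkhead factor known from quiescent spermatogonial stem cells, did not overlap between the classes, with 2.64 to 32.3 CPM in Stra8-high and 39.1 to 107.4 CPM in double-high cells (-2.41 ± 0.41, adjusted p = 0.00208, edgeR). Further genes with the largest falls were Plvap, Gfpt2, Tubg2 and Gm36028.

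Some progenitor and differentiation genes were higher in Stra8-high cells. Of 5 progenitor genes, 3 were called higher, with a median log2 fold change of 0.63. Rarg, the retinoic acid receptor of progenitors, had 12.8 to 52.2 CPM (median 35.2 CPM) in Stra8-high and 5.06 to 28.9 CPM (median 8.25 CPM) in double-high cells, higher in 8 of 8 pools (1.54 ± 0.23, adjusted p = 0.00111, edgeR). Sox3, an HMG box factor (1.57 ± 0.33), and Upp1, uridine phosphorylase (0.63 ± 0.13), were each higher in 7 of 8 pools. Of 11 differentiation factors, 3 were called higher and 1 lower, with a median of 0.24. Sohlh1 had 168 to 355 CPM (median 264 CPM) against 99.3 to 241 CPM (median 162 CPM), a log2 fold change of 0.65 ± 0.11 (adjusted p = 0.00176, edgeR). Its partner Sohlh2 (0.41 ± 0.10) and Dmrtb1, which guards the entry to meiosis (1.05 ± 0.30), were higher as well, and the cyclin Ccnd2 was lower (-0.58 ± 0.13). Dmrtb1 lost its call without any 1 of 6 of the pools, Sohlh2 without any 1 of 3 and Ccnd2 without any 1 of 2, with highest adjusted p of 0.148, 0.0874 and 0.0534 (edgeR).

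Genes of retinoic acid handling did not move one way. Crabp1 was higher in Stra8-high cells in 8 of 8 pools, with 304 to 496 CPM (median 327 CPM) against 212 to 318 CPM (median 242 CPM), a log2 fold change of 0.47 ± 0.07 (adjusted p = 0.00104, edgeR). Dhrs3, which reduces retinal to retinol (-1.05 ± 0.23), and the receptor Rxrg (-1.67 ± 0.36, median 3.90 against 11.4 CPM) were lower. Among the genes of the list that were not called were the receptor Rara (0.32 ± 0.13) and the retinal dehydrogenases Aldh1a1, Aldh1a2 and Aldh1a3.

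Enzymes of DNA methylation split too. The de novo methyltransferase Dnmt3b (0.75 ± 0.14) and the dioxygenase Tet3 (1.27 ± 0.21) were higher in Stra8-high cells, and Uhrf1, which guides maintenance methylation, was lower (-0.30 ± 0.07). Of 28 meiotic prophase genes 2 were higher, Syce2, of the synaptonemal complex, at 0.22 ± 0.06 and Rec114, of the break-forming machinery, at 0.68 ± 0.17, with a median of 0.08 over the list. Of 52 G2/M genes, 50 had negative differences, 8 were lower, among them Mki67 (-0.32 ± 0.09) and Cdk1 (-0.32 ± 0.09), and the median was -0.21. Mki67 and Cdk1 lost their calls without any 1 of 6 and of 7 pools, and Syce2, Rec114 and Uhrf1 without any 1 of 5, 4 and 4. Of 42 G1/S genes, Pola1 and Atad2 were lower and the median was -0.003. Of 16 glycolysis genes Ldhb and Pfkp were lower, Pola1 and Pfkp losing their calls without any 1 of 6 and of 4 pools, and of 5 prospermatogonia markers Krt18. The largest rises by the naming rule were those of Gm11032, a gene model on chromosome 11 (2.43 ± 0.28), Cdk6 (1.84 ± 0.26), Lmo1 (1.63 ± 0.24) and Bnip3 (1.49 ± 0.20), a mitophagy receptor, followed by Tet3, Igfbp6, D330045A20Rik, Hacd1, Fkbp9, Trp53i11, Rasd2 and Serpine2.

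**Figure D4:**
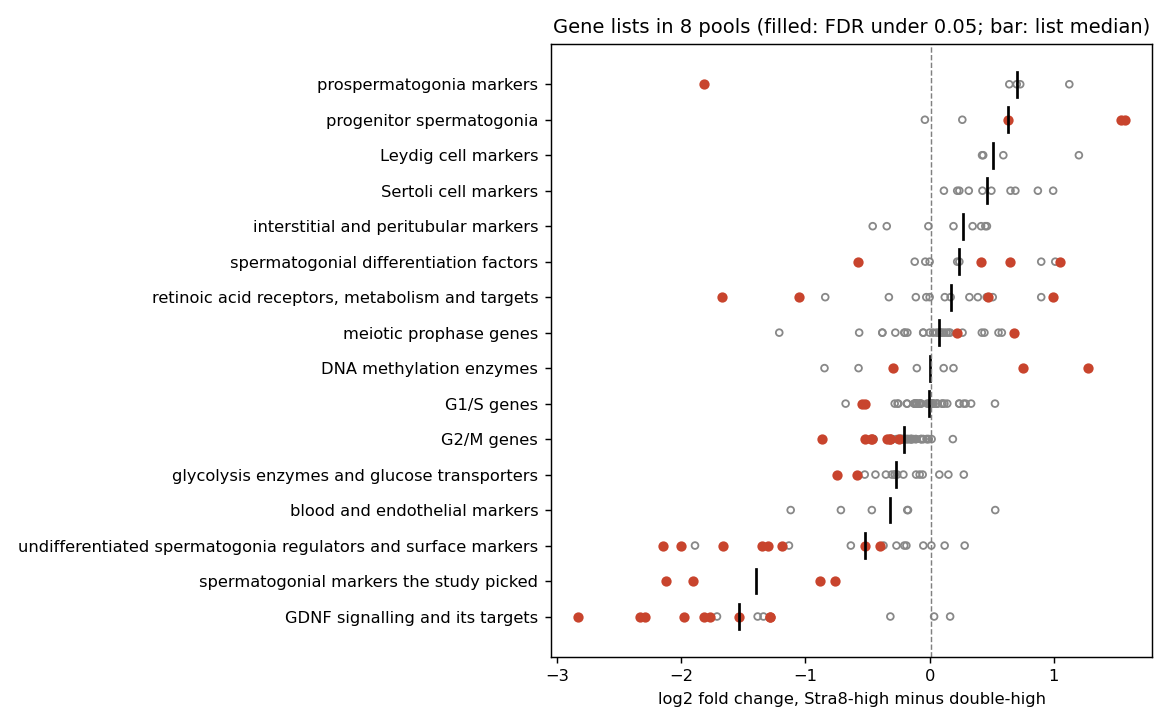
Log2 fold change between Stra8-high and double-high cells (x axis) of the tested members of each gene list (y axis), filled where called at a false discovery rate of 0.05, with the list median as a bar and the median of all genes as a dashed line. The GDNF list has the lowest median, -1.53, and 9 of its 15 genes are called, all lower.

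Depth and the RNA of other cells were set beside these classes. Median UMIs per cell lay between 75008.5 and 512450 over the Stra8-high sums and between 172294.5 and 522223.5 over the double-high sums, with double-high cells deeper in 6 of 8 pools. Median genes per cell ran from 8944.5 to 10723 in Stra8-high and from 9213 to 11467.5 in double-high cells, and after thinning to 50000 UMIs from 7045 to 8019 and from 7075 to 8248. With cells of at least 100000 UMIs, 632 genes were lower and 387 higher in 7 pools. All 10 Sertoli cell markers were above 0 in Stra8-high cells with a median log2 fold change of 0.46, none of them called, and their summed level was 51.2 to 631 CPM against 55.95 to 634 CPM. For 8 interstitial markers the sums were 73.6 to 321 CPM and 71.9 to 222 CPM. The part of these in the differences was not tested.

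Gfra1-high cells were also set against double-high cells, in 4 pools of PND3 and PND4 and again after the data were seen. Higher in Gfra1-high cells were 2 of 15088 genes (0.0133%), Prrx2 and Cdc42ep3, an effector of the GTPase CDC42, and 12 were lower (0.0795%). DESeq2 called 30 and 0 of the 755 genes it gave an adjusted p, and the test without pairing by pool 0 and 0. Single pools moved the counts to 23 and 16 without PND3 R1, 9 and 32 without PND3 R2, 1 and 1 without PND4 R1 and 7 and 41 without PND4 R2. Gm26707 had 65.3, 76.05, 13.7 and 46.2 CPM in Gfra1-high cells of PND3 R1, PND3 R2, PND4 R1 and PND4 R2 and 140.3, 146.1, 57.3 and 121.4 CPM in double-high cells (log2 fold change -1.26 ± 0.17, adjusted p = 0.000655, edgeR). Rrad (-1.16 ± 0.23), P2rx4 (-0.83 ± 0.15), Terf2ip, a telomere protein (-0.74 ± 0.11), and Mettl3, an RNA methyltransferase (-0.91 ± 0.18), were lower too, as were Ctf2, Gm26563 and Gm11525. Gm26707 and Prrx2 kept their calls whichever pool was left out, and the other 8 genes named lost theirs without PND4 R1. No gene of the GDNF list was called, 14 of 15 had positive differences, and the median was 0.26 against -0.06 over all genes. Tcl1 was at 0.45 ± 0.10 (adjusted p = 0.0621, edgeR). None of the 16 lists had a called gene. All 10 Sertoli cell markers were below 0 in Gfra1-high cells, with a median of -0.37, and the part of this in the differences was not tested. Whether this difference is smaller than that between Stra8-high and double-high cells was not tested, as the pools differ.

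Within the Stra8-high side itself, GDNF targets fell and Kit rose with age. The genes of the rule moved as well. Gfra1 in the Stra8-high sums went from 11.59 and 13.34 CPM at PND3 to 1.9 and 1.388 CPM at PND8, and Stra8 rose. The part of this drift in the slopes was not tested. In double-high cells Lhx1, Id4, T, Etv4 and Ret were also lower at PND8 than at PND3 in both replicates. Egr2, Etv5 and Dusp6 were not, and Spry4 was lower in R2 alone. Over 10 sums of PND3 and PND5 to PND8, 477 of 18048 genes fell with day (2.64%) and 336 rose (1.86%) in edgeR's test of a slope per day, again added after the data were seen, and DESeq2 called 1057 and 654. Scaled by library size alone, 426 fell and 503 rose. The sums are partly those of the comparisons above, so these slopes are no separate evidence for them. Of 15 GDNF genes 10 fell: Ret, Etv5, Etv4, Bcl6b, Lhx1, T, Egr2, Egr3, Dusp6 and Spry4, and none rose. Bcl6b, Egr3 and Spry4 lost their calls without any 1 of 3, 5 and 3 of the pools. Of the 50 genes named for day, 29 were called whichever pool was left out. Without both pools of PND3, 27 of the 50 lost their call and 0 changed direction. Egr3 then went from a log2 slope of -0.82 to -0.13 (adjusted p = 0.944, edgeR). Lhx1 in R1 was 60.8 CPM at PND3, 6.32 at PND5, 3.39 at PND6, 1.94 at PND7 and 2.78 at PND8, and in R2 72.5, 38.3, 8.14, 4.59 and 1.03 CPM (log2 slope -1.09 ± 0.13 per day, adjusted p = 0.000321, edgeR). Both replicates fell, and most of the fall came before PND7. Id4 fell by 0.79 ± 0.07 on the log2 scale per day (adjusted p = 7.59e-05, edgeR), and Nefm by 0.84 ± 0.10.

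Kit, the receptor of differentiating spermatogonia, rose. It had 10.8, 66.7, 56.7, 74.2 and 89.3 CPM in R1 and 10.4, 46.9, 68.5, 79.5 and 112.6 CPM in R2 at PND3, PND5, PND6, PND7 and PND8 (log2 slope 0.53 ± 0.09 per day, adjusted p = 0.00274, edgeR). At PND3 the Stra8-high cells had less Kit than Gfra1-high cells, 16.6 and 43.3 CPM, which did not pass the test. The order was the reverse in PND4 R1, with 36.6 CPM in Stra8-high and 18.5 CPM in Gfra1-high cells. It was also the reverse in PND5 R2, with 46.9 and 5.49 CPM, and in PND4 R2. Over the 5 pools of PND3 to PND5, Kit was not called. Dmrtb1 (0.63 ± 0.11), Rarg (0.31 ± 0.07), Crabp1 (0.12 ± 0.03), Sohlh1 (0.14 ± 0.04), Dnmt3b (0.28 ± 0.06) and Prdm9, the meiotic histone methyltransferase (0.85 ± 0.17), rose as well. Of 11 differentiation factors 3 rose (Kit, Dmrtb1 and Sohlh1) and 2 fell, Ccnd2 (-0.21 ± 0.05) and Prdm1 (-0.48 ± 0.11), and of the retinal dehydrogenases Aldh1a3 fell (-0.25 ± 0.07). These 3 falls were lost without any 1 of 4, 5 and 6 of the pools. Sohlh1 lost its call without any 1 of 4 of the pools, Rarg and Crabp1 without any 1 of 2, Dnmt3b without PND8 R2 (adjusted p = 0.0783, edgeR) and Prdm9 without PND8 R1 (adjusted p = 0.0551, edgeR). Crabp1 was 304 and 314 CPM at PND3 and 502 and 496 CPM at PND8. Of 28 meiotic genes Prdm9 was the one called. Without both pools of PND3, 277 genes rose and 177 fell, without PND8 R2 72 and 193, without PND8 R1 187 and 334, without PND7 R1 200 and 286, and without PND7 R2 197 and 297. Without PND3 R2, 569 rose and 618 fell. From the sums alone, fewer transcripts per cell and fewer cells that hold them cannot be told apart, and single cells were not examined for these slopes.

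**Figure D5:**
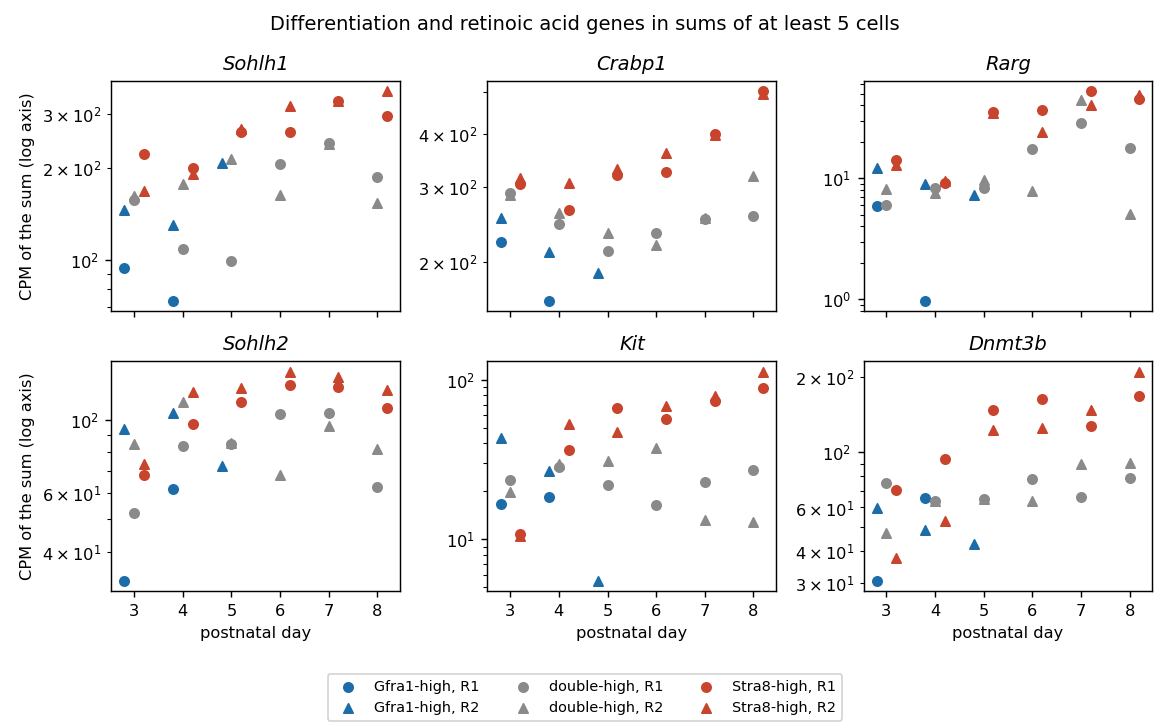
Levels (y axis, CPM of the sum, log axis) of Sohlh1, Crabp1, Rarg, Sohlh2, Kit and Dnmt3b by postnatal day (x axis) in Gfra1-high, double-high and Stra8-high sums of at least 5 cells, circles for R1 and triangles for R2. Kit in Stra8-high cells goes from 10.8 and 10.4 CPM at PND3 to 89.3 and 112.6 CPM at PND8, and in double-high cells stays between 12.8 and 37.1 CPM.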

How the data were processed

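Transcripts of single cells were read at their 3′ end (modified STRT-seq). Per their methods and the labels (UMI-tools, STAR, featureCounts of Subread, build mm10), the authors deposited counts of UMIs per gene and cell, without normalization, and a table of cells with the UMI and gene counts of each. CPM were computed on each cell's total. UMIs were summed per pool and class, and sums held 1092968 to 49698899 UMIs. Fits in edgeR 4.0.16 on R 4.3.3 (limma 3.58.1 for an alternative) had TMM scaling and the filterByExpr filter. The pool was the block, since both classes come from 1 animal. The paired fits were also run on simulated counts with 200 changed genes. These counts were drawn without a pool effect, so the pairing was not tested by them. Same-pool sums had correlated deviations (0.18 to 0.61). Between sums of different classes and different pools the correlations were -0.38 to 0.24, so the ranges overlapped. Deviations were taken from the class mean over few pools, which by itself lowers the correlations between pools. For the 2 PND3 pools, 0.38 and -0.38 are tied in this way, so these values do not test the pairing. Errors are SEs from the F statistic. DESeq2 1.42.0 was run beside. The pools of 1 age are 2 animals. Members, the 16 gene lists and the added comparisons were chosen with earlier results of these data known. Named genes are up to 12 per direction with the largest fold change among calls of 1 direction in all pools whose mean log2 CPM reached 5, list members called, and the most abundant uncalled ones. No doublet caller was run, as cells were picked singly, and barcodes recur between libraries by design. Sequences are those of RefSeq. One gene is not reported here.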

Additional observations from a re-analysis of the deposited data

Results flagged for a closer look

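The log2 ratio of a gene between classes stood apart in 1 pool for 7 of 98 genes and comparisons looked at, where chance alone flags about 1 in 20. In Stra8-high against double-high cells, 6 of these were in PND8 R2. There the log2 ratio was -6.3 for Nefm (-2.94 to -0.21 in the other pools), -4.48 for Tcl1 (-2.34 to -0.64), -1.47 for Ldhb (-0.72 to -0.11), -1.53 for G2e3 (-0.44 to -0.1), 2.7 for Serpine2 (0.15 to 1.23) and 2.5 for Trp53i11 (0.11 to 1.07). The double-high sum of PND8 R2 held 16 cells with a median of 172294.5 UMIs, and the Stra8-high sum 152 cells with a median of 330028.5 UMIs, and the part of this in the ratios was not tested. In Gfra1-high against double-high cells, Mettl3 had a log2 ratio of -0.51 in PND4 R2 and -1.07 to -0.98 in the other pools.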

How the results depend on the processing

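Values are shares of tested genes called, for the first direction named and then the other. For Gfra1-high against Stra8-high cells in the 2 PND3 pools, 0.0846% were higher in Gfra1-high and 0.115% in Stra8-high cells. These became 0% and 0% with no replicate block, and the same with each cell of equal weight (limma), 0.00769% and 0.0154% in DESeq2, 0.125% and 0.0591% with no replicate block, day as covariate and all sums, and 0.267% and 0.0501% with 5 or more cells per sum. The share higher in Stra8-high cells was 0.0692% on library size alone, and that in Gfra1-high cells 0.0231% with cells thinned to 50000 UMIs and 0.320% in sums per library, where B930036N10Rik was at -0.998 and Nprl3 at 0.423, reversed. In the 5 pools (0.267% and 0.0501%), the shares were 0.117% and 0.0251% on library size alone, 0.495% and 0.211% without a filter on low counts, 0.735% and 0.317% in DESeq2, and 0.0251% and 0.00835% with no replicate block. Higher in Gfra1-high cells were 0.103% with a stricter germ cell gate and 0.0638% with cells of equal weight, and higher in Stra8-high cells 0.175% when thinned and 0.107% per library. Leaving out 1 pool gave 0.0243% to 0.443% and 0.0162% to 0.111%.

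For Stra8-high against double-high cells, DESeq2 gave 4.01% higher and 6.25% lower, and no replicate block 0.179% and 0.462%. The share higher was 1.79% of more genes without a filter and 3.34% without both pools of PND3, and 1 pool left out gave 0.859% to 2.72% and 2.05% to 4.45%. For Gfra1-high against double-high cells, DESeq2 gave 3.97% and 0%, no replicate block 0% and 0%, no filter 0.0546% and 0.218%, library size alone 0.133% lower, and 1 pool left out 0.00649% to 0.149% and 0.00649% to 0.267%. For day, no filter gave 3.56% rising and 3.35% falling, DESeq2 4.10% and 6.63%, both pools of PND3 left out 0.954% falling, and 1 pool left out 0.388% to 2.83% and 1.04% to 3.08%. For a side difference that changes with day, DESeq2 gave 0.0251% and 1 pool left out 0.00819% to 1.22%. The causes were not tested.

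The paired fit is the one reported, since both classes of a pool come from 1 animal. All 22 genes named in the 5 pools and all 66 named against double-high cells kept direction and call with RLE size factors, in DESeq2 and without the filter. All of them kept direction in the other settings too, but of the 22, 11 lost their call on library size alone, 10 when thinned, 12 with the stricter gate, 15 with cells of equal weight, 5 per library, 5 with cells of at least 100000 UMIs and 18 with no replicate block. Of the 66, 2 lost theirs on library size alone, 4 with cells of at least 100000 UMIs, 3 without both pools of PND3 and 50 with no replicate block.

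Few Gfra1-high cells limit what was seen. A minimum of 20 cells, thresholds of 100 and 10 CPM, PND6 to PND8 alone, PND10 to PND14, and 10 cells of at least 100000 UMIs gave no pool with both sides, and the stricter gate 1 pool at 10 cells. The slope of the side difference on the PND3 pools was not run, PND3 to PND5 alone gave the same 2 pools, and leaving 1 of them out gives a value without a test.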
